A study of Mus musculus with 15 samples.

Results

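Vim, Fn1, Tnc, Postn, Sparc, Thbs1, Thbs2, Tgfbi, Lox and Thy1 were followed as a set of mesenchymal effector and stroma genes, taken by symbol from the deposited expression tables, 10 of 51826 gene rows. RNA-seq values came from 15 libraries of 13 female mice of the FVB strain per the labels (the design text names FVB/129). Tumors labelled TRIM24 COE, written Trim24COE here, arose in mice that carry MMTV-Cre and a transgene that, once Cre removes a stop cassette, expresses FLAG-tagged mouse Trim24 from a single integration. Of these tumors, 3 were labelled carcinosarcoma (mice 64, 567 and 897) and 3 carcinoma (mice 89, 273_5 and 3956). Control glands came from 4 mice with MMTV-Cre alone (133, 392, 417_3 and 517_3). The 3 non-TRIM24 tumors (219, FVB001 and FVB002) arose spontaneously in mice of unknown genotype, which the paper calls FVB or FVB/129. Every Trim24COE tumor and control gland thus carried MMTV-Cre, which is active in mammary epithelium. Readings of 2 pathologists differed for tumors 89, 567 and 3956, and the labelled class was used. The first reader called 89 and 3956 carcinosarcoma and 567 spindle cell carcinoma. For every Trim24COE tumor but 3956 the paper also lists a call based on RNA-seq, which matches the label. The labelled classes may therefore not be independent of these values. Animal ages were not given in the labels used here. The paper lists ages of the Trim24COE mice, which differ between them, and calls the control glands age-matched. Every library came from whole tissue.

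Vim encodes vimentin, the intermediate filament of mesenchymal cells, and is a classic marker of the epithelial-mesenchymal transition. Fn1 encodes fibronectin, a fibril-forming glycoprotein to which cells attach through integrins. Matricellular proteins, among them tenascin-C, periostin, SPARC and the thrombospondins, sit in the matrix without being its main scaffold and modulate adhesion, growth factor activity and fibre assembly. Fibroblasts are their main source in many tissues, and in tumors both stromal cells and mesenchymal tumor cells can make them.

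Values are TPM, a share of transcripts scaled by transcript length that sums to the same total in each library, so read depth and its counting error are unknown. Trim24 itself stood at 10.6, 12.02 and 14.5 TPM in the carcinosarcomas, 24.1, 13.9 and 16.5 TPM in the carcinomas, 14.5, 18.4, 22.4 and 15.9 TPM in the control glands and 5.34, 9.34 and 10.04 TPM in the non-TRIM24 tumors. The libraries labelled Trim24COE were therefore not higher in Trim24 RNA than the control glands, and the groups below are named by their labels only. By qRT-PCR the paper reports high Trim24 in these tumors against Cre-only glands. It also reports TRIM24 and FLAG protein overexpressed in Trim24COE tumors by immunohistochemistry. Libraries of control glands 417_3 and 517_3 lay as close to each other as repeat libraries of 1 mouse: the median absolute log2 difference over genes was 0.26 between them, against 0.25 and 0.28 for the repeats of mice 3956 and 133. Control glands 133 and 392 differed by 0.34, and the gland pairs differed from each other by 0.68 to 0.86. The labels name all 4 as separate mice and they were kept so, with the results given without either of them where that changes a call.

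Together the 10 genes made up 0.719%, 0.924% and 0.556% of all transcripts in carcinosarcomas 64, 567 and 897. Their share was 0.329%, 0.130% and 0.638% in carcinomas 89, 273_5 and 3956, 0.170% to 0.258% in the control glands and 0.195% to 0.338% in the non-TRIM24 tumors. Sparc and Vim had the highest mean log2(TPM + 1) in every group, with Vim first in the carcinosarcomas and Sparc first elsewhere. In the order of levels within a group, neighbours overlapped in their values, except for Vim over Postn in the control glands and in the non-TRIM24 tumors. Fn1 was the third gene in both Trim24COE classes and the seventh in the control glands, while Tnc was the fifth in both Trim24COE classes and last in the control glands. Thbs1 was last in the carcinosarcomas and the fourth in the control glands.

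**Figure D1:**
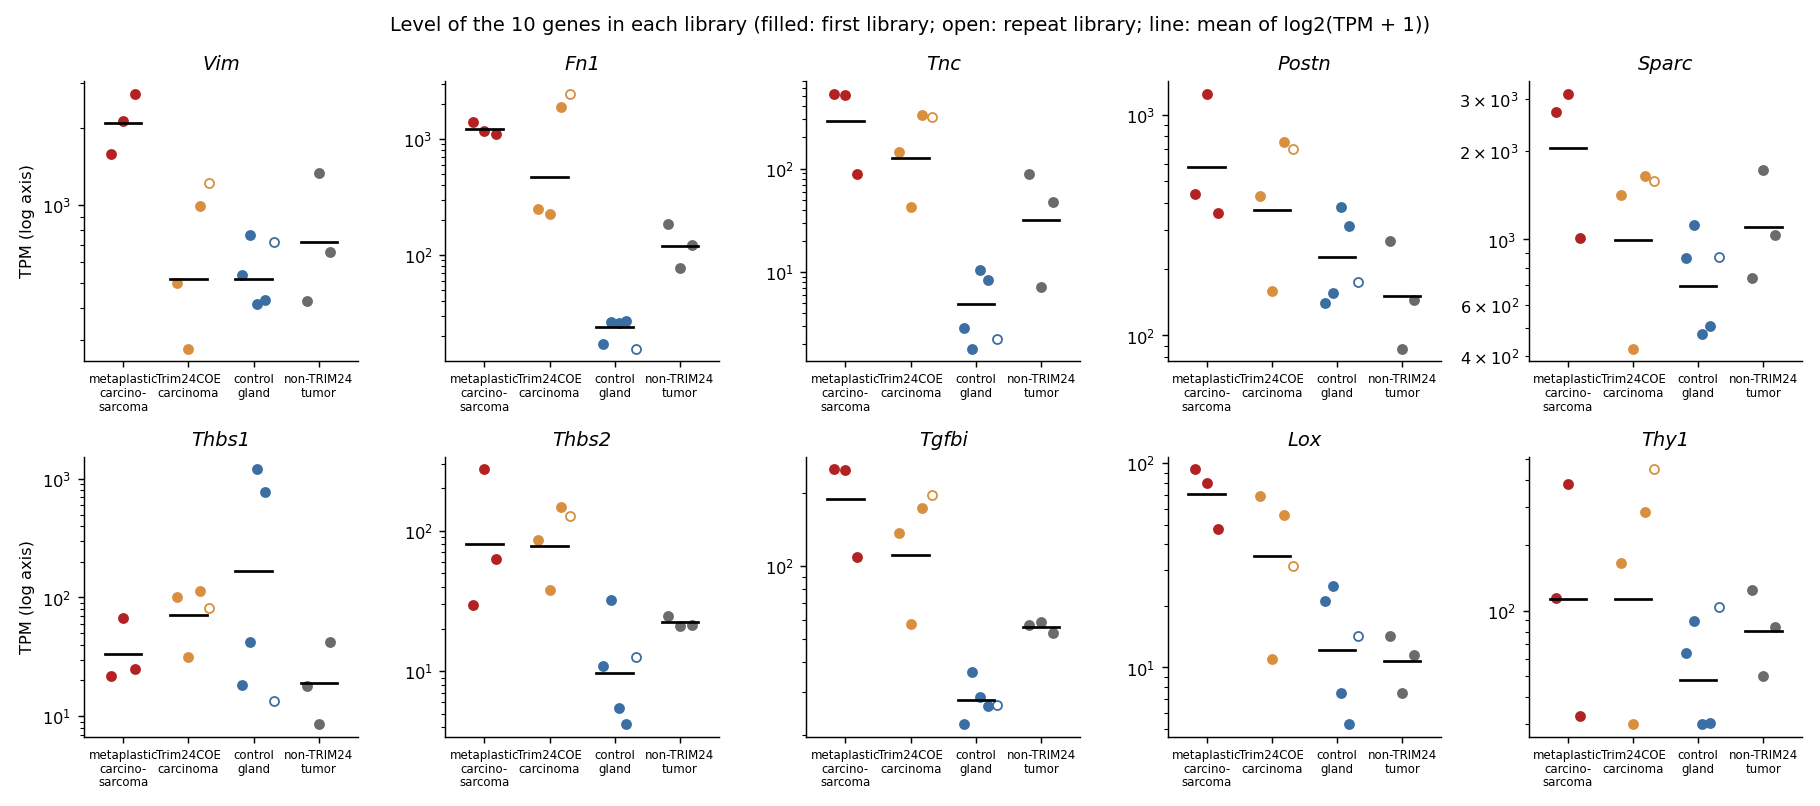
TPM of each of the 10 genes on a log axis, with 1 point per library, grouped as metaplastic carcinosarcomas, Trim24COE carcinomas, control glands and non-TRIM24 tumors, open points for the repeat libraries of mice 133 and 3956 and a line at the mean of log2(TPM + 1). Fn1 lies at 224 TPM or above in all 6 Trim24COE tumors and at 27.0 TPM or below in all control glands, and Thbs1 splits the control glands into a pair at 18.5 and 41.9 TPM and a pair at 1198 and 778 TPM.

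The first comparison asked how Trim24COE tumors differ from Cre-only glands. With all 6 tumors together, Fn1, Tnc, Thbs2, Tgfbi and Lox rose against the 4 control glands, by log2 fold changes of 1.95 to 5.04, and none of the 10 genes fell. All 10 passed the filter on low values. Of all genes tested, 17.1% passed an adjusted p of 0.05 and 7.96% passed it in the higher direction. The median log2 fold change was 1.58 over the 10 genes and -0.04 over all genes tested. In Fn1, Tnc and Tgfbi every tumor lay above every control gland, a pattern shown by 7.39% of all genes, with an exact permutation p of 0.00952, the smallest that 6 against 4 mice can give. Fn1, Tnc, Thbs2 and Tgfbi kept an adjusted p under 0.05 whichever mouse was left out, while Lox kept it in 2 of 10 such fits. The 2 classes of tumor were then compared with the same 4 control glands, which both comparisons share.

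Vim, on chromosome 2 of GRCm38 (13573927 to 13582826, plus strand), passed against glands in the carcinosarcomas, while the carcinomas did not pass. Its level was 1583, 2136 and 2722 TPM in carcinosarcomas 64, 567 and 897. In carcinomas 89, 273_5 and 3956 it was 498, 277 and 996 TPM, and in control glands 133, 392, 417_3 and 517_3 it was 535, 765, 412.5 and 428 TPM. All carcinosarcomas lay above all carcinomas and all control glands, and the carcinomas lay on both sides of the glands. Vim rose in carcinosarcomas against glands, with a log2 fold change of 2.01 ± 0.32 (SE, 3 against 4 mice, adjusted p = 0.00521), and kept that call whichever mouse was left out. Between carcinomas and glands the log2 difference was -0.01 ± 0.45 (adjusted p = 0.994), with a 95% confidence interval from -1.05 to 1.03, and carcinoma 3956 lay above every gland. The direct difference between the tumor classes did not pass (adjusted p = 0.161). In whole tissue, fewer cells of a type and less RNA per cell cannot be told apart.

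Fn1, on chromosome 1 (71585520 to 71653200, minus strand), had the lowest p of 15287 genes tested in carcinosarcomas against glands. Its level was 1416, 1165 and 1109 TPM in the carcinosarcomas 64, 567 and 897, and 248, 224 and 1885 TPM in carcinomas 89, 273_5 and 3956. The control glands held 17.1, 26.3, 26.1 and 27.0 TPM in mice 133, 392, 417_3 and 517_3. The carcinosarcomas stayed within 1.28-fold of each other, whereas carcinoma 3956 was the highest of all 6 tumors and the other two carcinomas were the lowest. The mean was 51.0 times the gland mean in carcinosarcomas (1230.02 ± 164 against 24.1 ± 4.73 TPM, SD, n = 3 and 4) and 32.6 times in carcinomas (786 ± 952 TPM, SD, n = 3). On the log2(TPM + 1) scale Fn1 rose by 5.63 ± 0.25 in carcinosarcomas (adjusted p = 0.000163) and by 4.26 ± 0.70 in carcinomas (adjusted p = 0.0239). The carcinoma call was lost without gland 417_3 (adjusted p = 0.0617) or gland 517_3 (0.0652).

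Tnc, on chromosome 4 (63959785 to 64047015, minus strand), encodes tenascin-C, a large multimeric glycoprotein that is sparse in adult tissue and induced in wounds and tumor stroma. It was nearly absent from control glands, at 2.87, 1.82, 10.6 and 8.39 TPM in mice 133, 392, 417_3 and 517_3. In carcinosarcomas 64, 567 and 897 it reached 528, 508 and 88.6 TPM. In carcinomas 89, 273_5 and 3956 it reached 146, 42.3 and 329 TPM. Every Trim24COE tumor lay above every gland. Tnc rose by 5.62 ± 0.74 on the log2 scale in carcinosarcomas (adjusted p = 0.0025) and by 4.45 ± 0.76 in carcinomas (adjusted p = 0.0252). The carcinoma call was lost without mouse 89 (adjusted p = 0.0689), 3956 (0.0819), 417_3 (0.0535) or 517_3 (0.0608).

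Tgfbi, on chromosome 13 (56609523 to 56639562, plus strand), encodes a secreted matrix protein that is induced by TGF-beta and binds integrins and collagen. It was 249.8 TPM in carcinosarcoma 64, 248 TPM in 567 and 108 TPM in 897, and 137, 57.5 and 173 TPM in carcinomas 89, 273_5 and 3956. Control glands 133, 392, 417_3 and 517_3 held 22.2, 36.3, 28.7 and 26.3 TPM, so the groups did not overlap. Tgfbi rose by 2.71 ± 0.35 in carcinosarcomas (adjusted p = 0.00232) and by 1.95 ± 0.40 in carcinomas (adjusted p = 0.0407) on the log2 scale. The carcinosarcoma call held whichever mouse was left out. The carcinoma call held in 1 of 7 such fits, the one without mouse 273_5.

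Thbs2, on chromosome 17 (14665500 to 14694235, minus strand), encodes thrombospondin-2, a matricellular glycoprotein that restrains angiogenesis and affects collagen fibril assembly. It spread widely in the carcinosarcomas, at 29.8 TPM in 64, 273 TPM in 567 and 62.6 TPM in 897. It was 85.2, 38.0 and 147 TPM in carcinomas 89, 273_5 and 3956, and 10.9, 32.1, 5.52 and 4.19 TPM in glands 133, 392, 417_3 and 517_3. Gland 392 overlapped the lowest carcinosarcoma, and all carcinomas lay above all glands. Thbs2 rose in carcinosarcomas (log2 2.92 ± 0.85, adjusted p = 0.0411), a call that held only when gland 392 was left out and was lost without any other single mouse (adjusted p up to 0.13). In carcinomas the log2 difference was 2.88 ± 0.70 and did not pass (adjusted p = 0.0650).

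Postn, on chromosome 3 (54361109 to 54391037, plus strand), encodes periostin, a matricellular partner of collagen and BMP1. Sparc, on chromosome 11 (55394500 to 55423183, minus strand), encodes a collagen-binding matricellular protein. Postn was 439, 1243 and 360.4 TPM in carcinosarcomas 64, 567 and 897, 428, 159 and 748 TPM in carcinomas 89, 273_5 and 3956, and 141, 156, 381 and 314 TPM in glands 133, 392, 417_3 and 517_3. Sparc was 2716, 3136 and 1008 TPM in the same carcinosarcomas, 1412, 425 and 1648 TPM in the carcinomas and 867, 1119.8, 477 and 508 TPM in the glands. Both overlapped between tumors and glands, with carcinoma 273_5 inside or below the gland range for each. In carcinosarcomas the log2 difference was 1.36 ± 0.53 for Postn (adjusted p = 0.0992) and 1.55 ± 0.49 for Sparc (adjusted p = 0.0532), and in carcinomas it was 0.71 ± 0.58 and 0.52 ± 0.54 (adjusted p = 0.537 and 0.643). Sparc passed in carcinosarcomas without mouse 897 (log2 2.07, adjusted p = 0.0283) or without gland 392 (1.78, 0.0440).

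Promoter windows are shown for Tnc, which rose in both Trim24COE classes, for Thbs2, which rose in carcinosarcomas, and for Postn, which did not pass in either. Each is the 250 bases before a RefSeq start site on GRCm38.p6, written 5′ to 3′ on the gene's strand. Capitals mark the TATA box letters TATAAA, the GC box letters GGGCGG and the CCAAT box letters CCAAT, searched on both strands and with no overlap between them in the windows shown. On the other strand TATAAA reads TTTATA and the CCAAT box reads ATTGG. Windows of 6 of the 10 genes were used, a count that does not show how many of the 10 have one. Those shown overlap no annotated exon.
Tnc promoter, chr4:64047016-64047265, minus strand: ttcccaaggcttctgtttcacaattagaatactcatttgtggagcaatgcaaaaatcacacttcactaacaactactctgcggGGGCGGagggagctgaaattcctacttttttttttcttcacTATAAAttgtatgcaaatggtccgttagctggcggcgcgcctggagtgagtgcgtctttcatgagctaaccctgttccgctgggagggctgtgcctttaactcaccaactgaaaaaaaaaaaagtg
Thbs2 promoter, chr17:14694263-14694512, minus strand: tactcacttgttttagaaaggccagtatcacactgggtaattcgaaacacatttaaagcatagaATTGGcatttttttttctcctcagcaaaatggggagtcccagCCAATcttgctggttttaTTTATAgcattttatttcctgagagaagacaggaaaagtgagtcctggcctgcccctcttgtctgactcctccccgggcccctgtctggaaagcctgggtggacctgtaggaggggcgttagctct
Postn promoter, chr3:54360857-54361106, plus strand: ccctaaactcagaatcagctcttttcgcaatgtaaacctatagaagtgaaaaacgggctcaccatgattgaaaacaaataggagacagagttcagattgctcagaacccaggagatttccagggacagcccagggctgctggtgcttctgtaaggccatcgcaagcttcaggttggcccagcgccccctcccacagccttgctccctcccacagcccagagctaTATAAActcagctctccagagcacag

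Tnc held TATAAA at 126 bases before the start site and GGGCGG at 167. The window of another Tnc start site overlaps an annotated exon and is not shown. Thbs2 held TTTATA at 126 bases and CCAAT or ATTGG at 144 and 186. Postn held TATAAA at 26 bases. Its other start site in the table, with the window chr3:54359017-54359266, held none of the letters searched. Of 32851 promoter windows of 250 bases, 12.4% held TATAAA, 32.7% GGGCGG and 33.8% CCAAT on either strand. TGANTCA, the letters bound by AP-1, was in none of these windows and in 6.75% of all windows.

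Lox encodes lysyl oxidase, which crosslinks collagen and elastin. It was 93.2, 80.3 and 47.4 TPM in carcinosarcomas 64, 567 and 897, 69.0, 10.98 and 55.6 TPM in carcinomas 89, 273_5 and 3956, and 21.1, 25.1, 7.52 and 5.27 TPM in glands 133, 392, 417_3 and 517_3. All carcinosarcomas lay above all glands, and carcinoma 273_5 lay among the glands. Lox rose in carcinosarcomas (log2 2.44 ± 0.54, adjusted p = 0.0172), a call that was lost without tumor 64 (adjusted p = 0.0819) or 567 (0.0665). The carcinomas did not pass (log2 1.45 ± 0.74, adjusted p = 0.312).

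Thy1, on chromosome 9 (44043384 to 44048579, plus strand), encodes CD90, a surface glycoprotein of fibroblasts and, in mice, of T cells. It was 114, 383 and 32.6 TPM in carcinosarcomas 64, 567 and 897, 166, 29.9 and 284 TPM in carcinomas 89, 273_5 and 3956, and 64.0, 89.8, 29.8 and 30.3 TPM in glands 133, 392, 417_3 and 517_3. Tumors 897 and 273_5 lay among the glands and the other 4 above them. The log2 difference from glands was 1.23 ± 0.78 in carcinosarcomas (adjusted p = 0.289) and 1.22 ± 0.76 in carcinomas (adjusted p = 0.409). The summed level of 10 lymphocyte markers was 28.1 to 49.2 TPM in carcinosarcomas, 4.24 to 38.4 TPM in carcinomas and 46.0 to 123 TPM in glands, and its part in the Thy1 levels was not tested.

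In all, 6 of the 10 genes rose in carcinosarcomas and 3 in carcinomas against the shared glands, and none fell. Of all genes tested, 23.0% passed in carcinosarcomas, and 9.83% passed in the higher direction, against 3.50% and 1.58% in carcinomas. The median log2 fold change of the 10 genes was 2.23 in carcinosarcomas and 1.34 in carcinomas, beside -0.12 and 0.02 over all genes tested. Groups did not overlap, with the tumors higher, for Vim, Fn1, Tnc, Tgfbi and Lox in carcinosarcomas, as for 15.4% of all genes, and for Fn1, Tnc, Thbs2 and Tgfbi in carcinomas, as for 10.7% of all genes. Exact permutation tests gave 0.0571 for each of these, the smallest p that 3 against 4 mice allow.

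**Figure D2:**
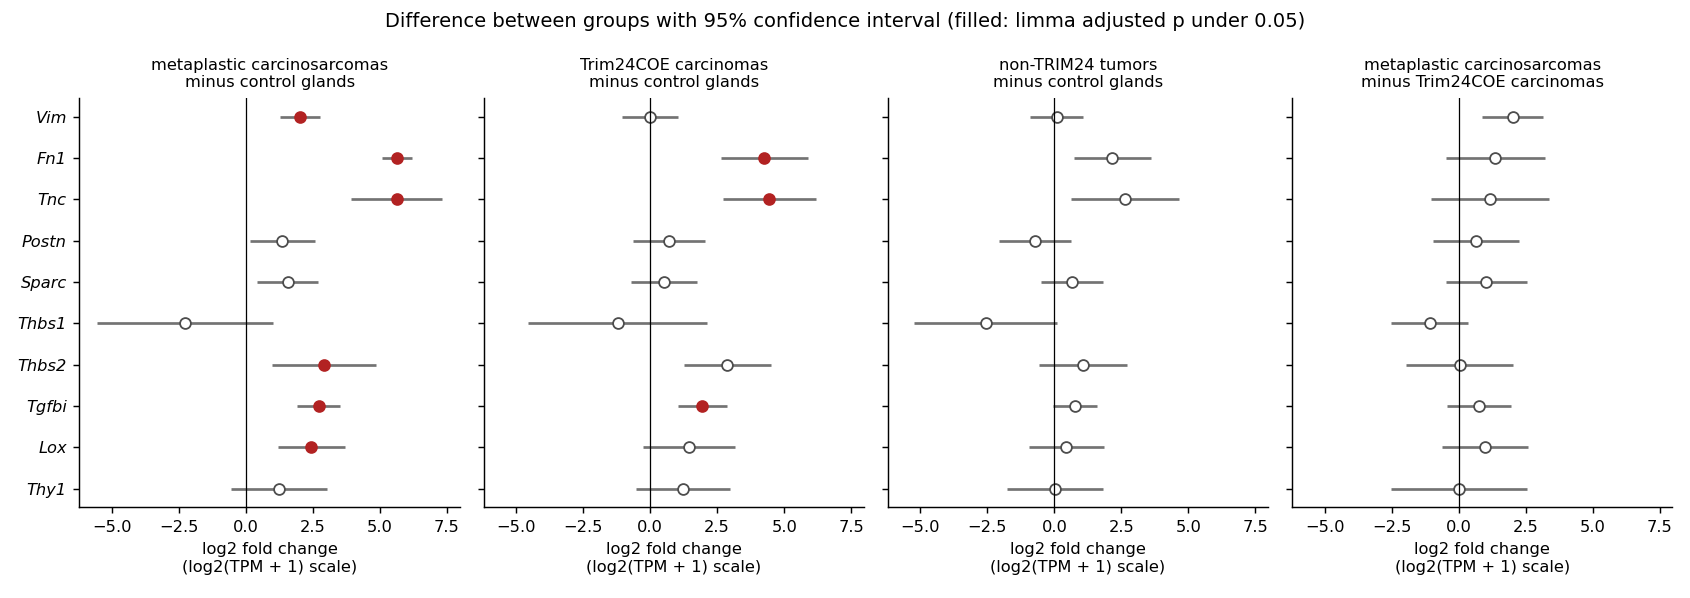
Fitted log2 fold change of each of the 10 genes with its 95% confidence interval, for metaplastic carcinosarcomas, Trim24COE carcinomas and non-TRIM24 tumors against control glands and for metaplastic carcinosarcomas against Trim24COE carcinomas, with filled points where the adjusted p is under 0.05. Fn1 and Tnc lie at 4.26 or above against glands in both Trim24COE classes, Vim lies at 2.01 in carcinosarcomas and at -0.01 in carcinomas, and the interval of Thbs1 spans 0 in each comparison.

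Thbs1, on chromosome 2 (118111876 to 118127133, plus strand), encodes thrombospondin-1, an activator of latent TGF-beta that is also an early-response gene of growth factor and stress signalling, and its level divided the control glands. It was 18.5 TPM in gland 133 and 41.9 TPM in gland 392, but 1198 TPM in gland 417_3 and 778 TPM in gland 517_3. Carcinosarcomas 64, 567 and 897 held 21.8, 67.7 and 24.8 TPM and carcinomas 89, 273_5 and 3956 held 100.4, 31.8 and 113 TPM, all above gland 133 and below glands 417_3 and 517_3. No call resulted against all 4 glands, with a log2 difference of -2.28 ± 1.43 in carcinosarcomas (adjusted p = 0.281) and -1.21 ± 1.45 in carcinomas (adjusted p = 0.696). Against glands 133 and 392 alone the log2 difference was 0.25 and 1.32, and against glands 417_3 and 517_3 alone Thbs1 fell by 4.82 (adjusted p = 0.00105) and 3.74 (adjusted p = 0.0213).

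A list of 12 early-response genes, chosen after values were seen, stood apart in the same glands. In each of the 12, glands 417_3 and 517_3 lay above all 13 other libraries. That count may follow from how the list was chosen, and it was not set against all genes. Fos, a subunit of AP-1, was 3381 and 3025 TPM in glands 417_3 and 517_3 and 5.43 to 39.0 TPM in the other libraries. Egr1, a zinc finger transcription factor of the same early response, was 934 and 762 TPM against 12.04 to 48.9 TPM. The summed level of the 12 genes was 16447 and 14716 TPM in these glands and 239 to 1037 TPM elsewhere. Its part in the Thbs1 difference was not tested.

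**Figure D3:**
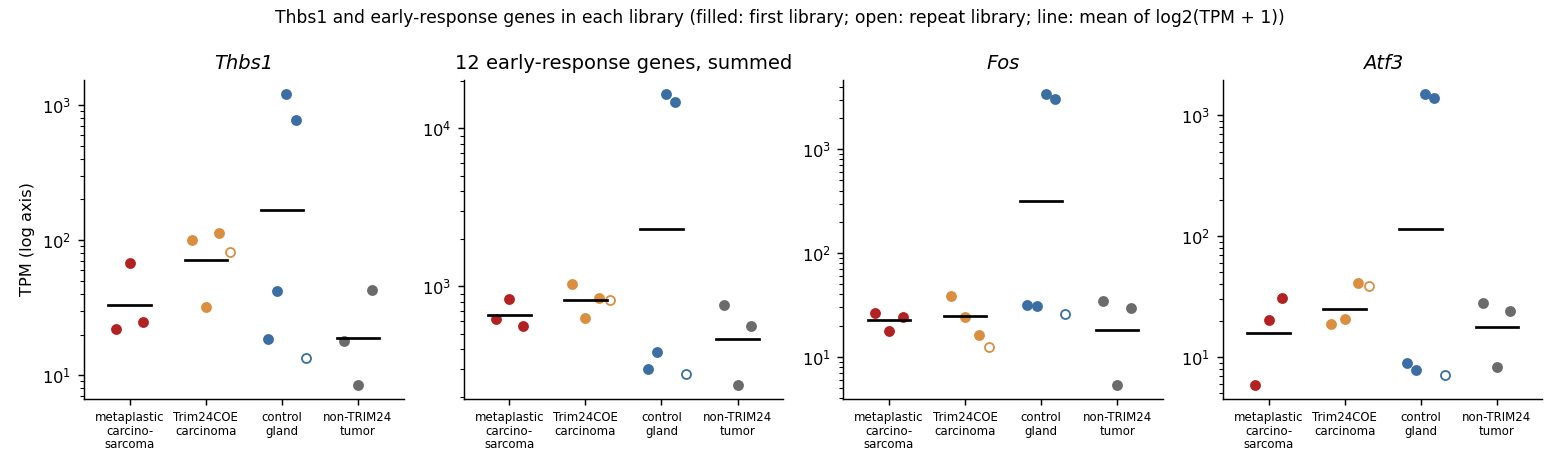
TPM on a log axis of Thbs1, of 12 early-response genes summed, of Fos and of Atf3, with 1 point per library by group, open points for repeat libraries and a line at the mean of log2(TPM + 1). In each panel glands 417_3 and 517_3 lie above the other 13 libraries, for Thbs1 at 1198 and 778 TPM against 8.53 to 113 TPM.

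The choice of glands also touched other members. Against glands 133 and 392 alone, 6 genes rose in carcinosarcomas, with Postn among them (log2 1.96, adjusted p = 0.0409) and Thbs2 not (2.03), and 1 gene, Tnc, rose in carcinomas. Of all genes tested in those fits, 14.4% and 3.80% rose. Against glands 417_3 and 517_3 alone, 7 genes rose in carcinosarcomas, Sparc included (log2 2.05, adjusted p = 0.0209), and Thbs2 was the member that rose in carcinomas (3.77, adjusted p = 0.0197), where 12.2% and 2.15% of all genes rose. In that carcinoma fit Fn1, Tnc and Tgfbi missed the threshold in carcinomas (adjusted p = 0.0567, 0.0546 and 0.0673). These subsets were chosen after values were seen, and with each of them Fn1, Tnc, Vim, Tgfbi and Lox rose in carcinosarcomas.

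Carcinosarcomas and carcinomas were then compared directly, by labels that may rest in part on these RNA-seq data. Vim was the gene in which every carcinosarcoma lay above every carcinoma, 1583 TPM at the lowest against 996 TPM at the highest, with 7.33% of all genes showing that pattern. Its log2 difference was 2.02 ± 0.48, with a 95% confidence interval from 0.88 to 3.16, and did not pass over all genes (limma adjusted p = 0.161). None of the 10 genes was called by limma, 1 at an unadjusted p under 0.05, where 0.698% of all genes were called. The exact permutation p for Vim was 0.1, the smallest that 3 against 3 mice allow. Fn1 differed by 1.37 ± 0.79 (95% confidence interval -0.48 to 3.23), Tnc by 1.17 ± 0.93 (-1.01 to 3.36) and Thy1 by 0.00 ± 1.08 (-2.54 to 2.55), intervals that hold both no difference and differences of several fold. Without carcinoma 3956, Vim (log2 2.49, adjusted p = 0.0368) and Fn1 (2.37, adjusted p = 0.0189) rose in carcinosarcomas, against the 2 carcinomas left, as did 0.254% of all genes.

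The 6 Trim24COE tumors did not vary in the same way for all members. Carcinoma 273_5 was the lowest of the 6 in Vim, Fn1, Tnc, Postn, Sparc, Tgfbi, Lox and Thy1. Over the 6 tumors, Pearson's r of log2(TPM + 1) was 0.995 between Sparc and Tgfbi, 0.984 between Tnc and Tgfbi and 0.968 between Tnc and Sparc. For Vim the order differed, with its highest level in 897, where Fn1, Tnc, Postn, Sparc, Tgfbi, Lox and Thy1 were the lowest of the 3 carcinosarcomas. Its r over the 6 tumors was 0.81 with Fn1, 0.67 with Lox, 0.65 with Sparc, 0.64 with Tgfbi, 0.62 with Postn and 0.57 with Tnc, and lower with Thbs2 (0.31), Thy1 (0.24) and Thbs1 (-0.23). These values describe 6 points that share 2 tumor classes and tumors of different composition.

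The deposited values came in 2 sets, treated here as batches 1 and 2. All non-TRIM24 tumors were in batch 2, and strain may differ in this group. Fn1 was 187, 76.9 and 121.5 TPM in tumors 219, FVB001 and FVB002, above every gland and below every Trim24COE carcinoma. Tgfbi, at 56.9, 58.7 and 52.6 TPM, also lay above every gland. Tnc was 88.5, 7.25 and 47.2 TPM and overlapped the glands in FVB001. In a fit over all 15 libraries with a batch term and mouse as a random block, no member passed in non-TRIM24 tumors against glands, where 0.709% of all genes did. Fn1 differed by log2 2.17 ± 0.67 (adjusted p = 0.132) and Tnc by 2.64 ± 0.94 (adjusted p = 0.168), the 2 members with an unadjusted p under 0.05. Groups did not overlap for Fn1 and Tgfbi, as for 7.62% of all genes.

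Carcinomas of Trim24COE mice against non-TRIM24 tumors gave no call among the 10 genes, with 3 at an unadjusted p under 0.05 by limma and 0.0298% of all genes called. Those 3 were Fn1 (log2 2.18 ± 0.71, adjusted p = 0.191), Tgfbi (1.19 ± 0.41, adjusted p = 0.202) and Thbs2 (1.76 ± 0.81, adjusted p = 0.283). Fn1 and Thbs2 were higher in every carcinoma than in every non-TRIM24 tumor, as 30.1% of all genes were. Vim differed by -0.10 ± 0.49 (95% confidence interval -1.15 to 0.95). Within batch 2 alone, with 1 repeat library of a carcinoma and 1 of a gland, Fn1 was 2458 TPM in carcinoma 3956 and 15.6 TPM in gland 133, on either side of the 76.9 to 187 TPM of the non-TRIM24 tumors. Tnc was 315 TPM and 2.26 TPM in these repeats.

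The repeat libraries of mice 3956 and 133 show how far a member can move between batches. The median absolute log2 difference over the 10 genes was 0.25 for mouse 3956 and 0.28 for mouse 133. Thy1 was higher in both repeats, by 1.58-fold and 1.62-fold. Lox was lower in both, at 0.571 and 0.689 of the first library, as was Thbs1, at 0.723 and 0.747. Fn1 changed by 1.304-fold and 0.919-fold. The lowest carcinoma and the highest non-TRIM24 tumor, which come from different batches, held 224 and 187 TPM of it.

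Genes of the same pathways were read from lists that share no gene with the 10. Of enzymes that crosslink or modify collagen and elastin, 12 of 12 rose in carcinosarcomas against glands (median log2 2.78), as Lox did. In carcinomas 3 of the 12 rose (median 1.63) and 9 did not pass. Bmp1, the procollagen C-proteinase, rose by 3.02 (adjusted p = 0.000948), from 9.01 to 17.9 TPM in glands to 100.4 to 132 TPM in carcinosarcomas. P4ha1, a prolyl hydroxylase subunit, rose by 2.81 (adjusted p = 0.00115), and Plod2, a lysyl hydroxylase, by 2.76 (adjusted p = 0.00127). In carcinomas P4ha1, P4ha3 and Plod2 rose, by 2.10, 2.93 and 1.74.

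Of 16 elastic fibre and fibronectin-associated glycoproteins, 7 rose and 1 fell in carcinosarcomas (median log2 1.48), and 1 rose in carcinomas (median 0.90). Emilin2 and Emilin1, glycoproteins of elastic fibres, rose in carcinosarcomas by 2.73 (adjusted p = 0.0021) and 3.47 (0.00261), and Fbln2, a fibulin, by 2.63 (0.0029). Ltbp3, a binding protein of latent TGF-beta, fell by 1.27. In carcinomas Emilin1 rose by 2.51 (adjusted p = 0.00948).

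Other matricellular genes went both ways. Of 17 listed, 16 were tested in carcinosarcomas, where 4 rose and 2 fell (median log2 0.39), and 15 in carcinomas, where 1 rose and 1 fell (median -0.34). Spp1, osteopontin, rose by 5.47 in carcinosarcomas (adjusted p = 0.00115) and by 6.04 in carcinomas (0.0074), and it was the companion matrix gene that rose in non-TRIM24 tumors (5.32 ± 0.79, adjusted p = 0.0100). Its level was 15.6 to 94.9 TPM in glands, 1370.1 to 2349 TPM in carcinosarcomas, 2170.5 to 3130 TPM in carcinomas and 357 to 5980 TPM in non-TRIM24 tumors. Wisp1, a CCN family member, rose in carcinosarcomas by 3.65 (adjusted p = 0.00232). Spock2, a testican proteoglycan, fell by 3.04 in carcinosarcomas (adjusted p = 0.00734) and by 3.13 in carcinomas.

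Of 12 other intermediate filament and mesenchymal cytoskeleton genes, 2 rose and 1 fell in carcinosarcomas (median log2 0.60) and 1 rose and 1 fell in carcinomas (median -0.08). Nes, nestin, rose by 3.58 in carcinosarcomas (adjusted p = 0.000538) and by 2.21 in carcinomas. Fscn1, the actin-bundling fascin, rose in carcinosarcomas by 2.56 (adjusted p = 0.00374). Synm, synemin, fell by 2.90 (adjusted p = 0.00966) and 2.92. Between carcinosarcomas and carcinomas no gene of these 4 lists was called.

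**Figure D4:**
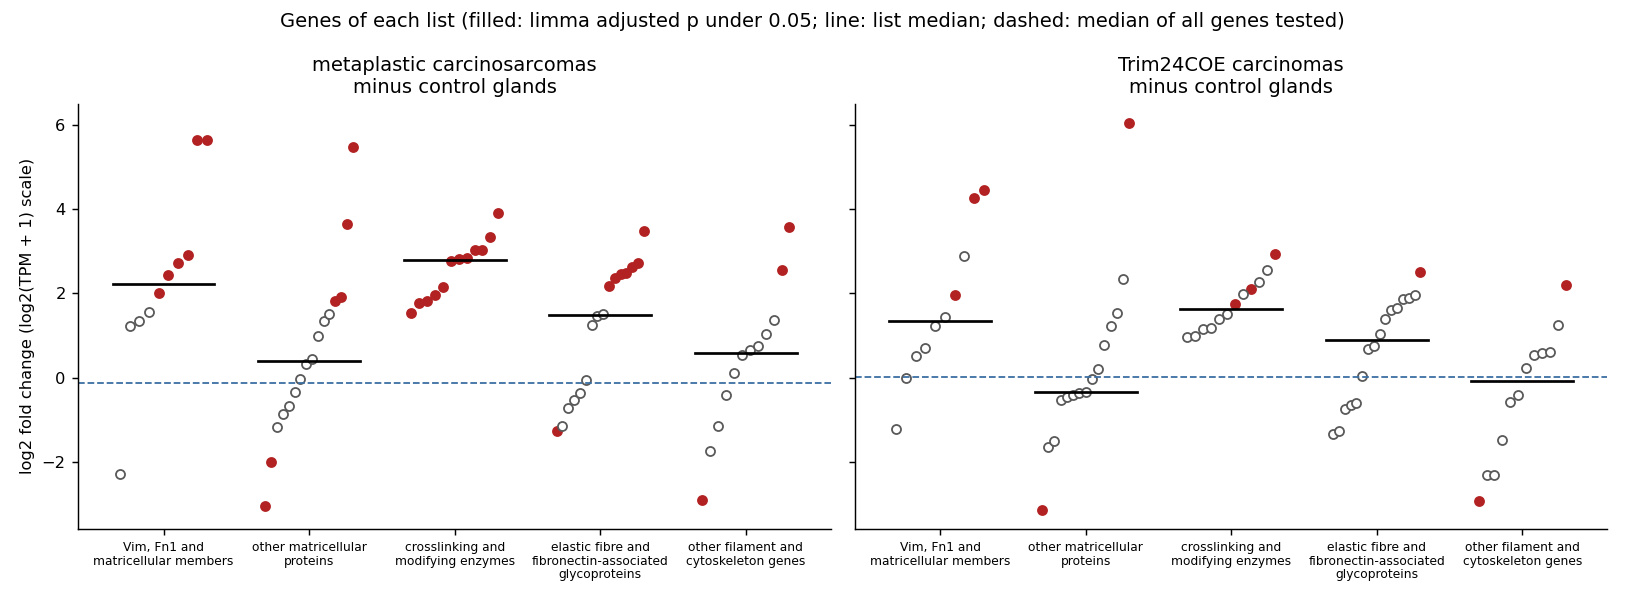
Fitted log2 fold change of every tested gene of the member set and 4 companion lists, against control glands, for carcinosarcomas and carcinomas, with filled points where the adjusted p is under 0.05, a line at each list's median and a dashed line at the median of all genes tested. The crosslinking enzymes have medians of 2.78 and 1.63, with all 12 genes above 0 in both comparisons, while the other matricellular genes spread to both sides of 0.

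In carcinosarcomas against glands, the median log2 fold change of marker lists was positive for some cell types and negative for others. The summed level of 12 fibroblast markers was 6645, 8575 and 2439 TPM in carcinosarcomas 64, 567 and 897, 3191, 449 and 2179 TPM in carcinomas 89, 273_5 and 3956, and 713 to 1942 TPM in glands. Within this sum Col1a1, Col1a2 and Col3a1, themselves matrix genes, held 601, 4185 and 614 TPM in 64. They held 2043, 1967 and 3006 TPM in 567 and 376, 457 and 378 TPM in 897. Of the 12 markers, 10 had a positive log2 fold change in carcinosarcomas and 6 rose (median log2 1.70), while none passed in carcinomas (median 0.74). Carcinoma 273_5, the lowest in 8 of the 10 members, also had the lowest fibroblast sum of all mice.

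Macrophage markers summed to 4684 to 7248 TPM in carcinosarcomas, 2373 to 7081 TPM in carcinomas, 831 to 1488 TPM in glands and 1584 to 1936 TPM in non-TRIM24 tumors, with no overlap between Trim24COE tumors and glands. Epithelial markers summed to 384 to 1425 TPM in carcinosarcomas, against 2807 to 6615 TPM in carcinomas and 976 to 6494 TPM in glands, and 7 of 10 fell in carcinosarcomas against glands. Adipocyte markers summed to 25810 and 38412 TPM in glands 133 and 392 but 1791 and 1977 TPM in glands 417_3 and 517_3, so the gland pairs differed in fat as well as in Thbs1. They were 125 to 1300.1 TPM in Trim24COE tumors and 180.4, 54896 and 27820 TPM in non-TRIM24 tumors 219, FVB001 and FVB002. Of 10 endothelial and 10 pericyte and smooth muscle markers, 2 and 5 fell in carcinosarcomas and 3 and 2 in carcinomas, and none rose. Skeletal muscle markers summed to 64.5, 1301 and 154 TPM in carcinosarcomas 64, 567 and 897 and to 433, 31.9 and 360 TPM in carcinomas 89, 273_5 and 3956. Glands 133, 392, 417_3 and 517_3 held 487, 3248, 15.2 and 14.55 TPM. None of these 10 markers passed in either class. No list had a marker at 0 in every mouse of a group. The part of these cell types in the members' levels was not tested. With the mean macrophage marker level as a covariate no member was called in Trim24COE tumors or in either class against glands. Of all genes tested, 0 were called in Trim24COE tumors, 7 in carcinosarcomas and 0 in carcinomas with that covariate. Fn1 differed by 5.26 in carcinosarcomas and by 1.75 in carcinomas. The covariate separates Trim24COE tumors from glands, so covariate and tissue cannot be told apart.

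**Figure D5:**
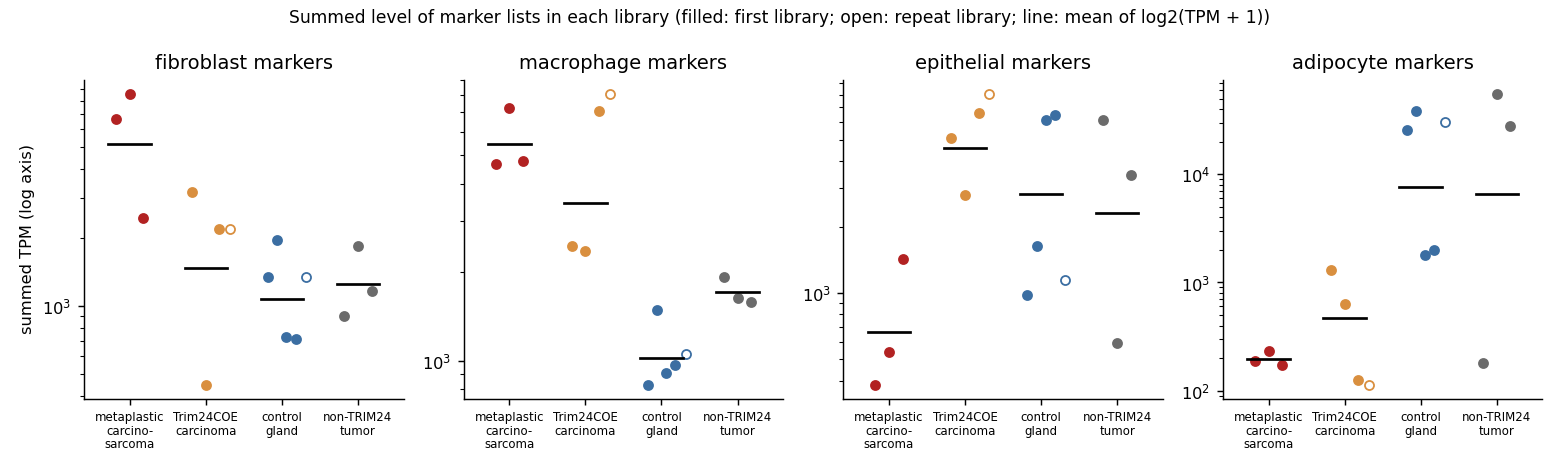
Summed TPM of fibroblast, macrophage, epithelial and adipocyte markers in each library on a log axis, by group, with open points for repeat libraries and a line at the mean of log2(TPM + 1). The macrophage sums of the 6 Trim24COE tumors, 2373 TPM or more, lie above those of the glands, 1488 TPM or less, and the adipocyte sums split the glands into pairs at 25810 and 38412 TPM and at 1791 and 1977 TPM.

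For each member, the genes most like it were taken by Pearson's r of log2(TPM + 1) over the 10 mice of batch 1, among 13919 genes. Fn1 was most like Tmsb10 (r = 0.984), Jpt1 and Cybc1, and Tmsb10 ranged from 609 to 996 TPM in glands to 1974.6 to 3696 TPM in Trim24COE tumors. Tnc was most like Ints11 (0.983), Olfml3 and Unc5b, and Tgfbi most like Olfml3 (0.987), Rer1 and Snx20. Sparc was most like Col5a1 (0.969), Loxl1 and Slc25a39, and Lox most like Ccdc71l (0.960), Col5a1 and St3gal2. Vim was most like Serp2 (0.951), Ttc39c and Sema3a, and Ttc39c held 35.5 to 37.7 TPM in carcinosarcomas against 3.63 to 13.6 TPM in the other mice of batch 1. Postn was most like Col7a1 (0.980), Spsb1 and Plekho2. Thbs2 was most like Cd53 (0.966), Ccl6 and Cd300a, all genes of leukocytes, and Thy1 most like Klrb1a (0.979), Adgre5 and Rom1. Thbs1 was most like Supt5 (0.992), Nedd9 and Elf1, and Nedd9 stood at 93.6 and 68.0 TPM in glands 417_3 and 517_3 against 9.78 to 28.2 TPM in all other libraries. These values describe 10 mice that differ in tissue and composition.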

How the data were processed

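RNA of whole mouse mammary tumors and glands was sequenced, and the deposited values came in 2 sets that were treated as batches 1 and 2. The deposited values are TPM, which the authors made per the study's methods by aligning reads with STAR to GRCm38 with GENCODE annotation and estimating abundance with RSEM; the submitters' processing notes name FastQC, TopHat, Cufflinks, RSEM, DESeq and edgeR and the build mm10, and the library kit differs between the labels and the methods. Each library sums to the same total, so depth is unknown, and 200 of 51826 rows had no symbol. Samples were grouped by their labels.

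On log2(TPM + 1), two-sided linear models were run in limma 3.58.1 (R 4.3.3; eBayes with a variance trend), Benjamini-Hochberg adjustment covered all genes tested, and 0.05 was the threshold. Genes entered when enough libraries, namely the number in the smaller group, held 1 TPM or more. Fold changes are on that scale and understate changes of low genes. Comparisons within batch 1 used first libraries of the groups compared; for non-TRIM24 tumors the fit held all 15 libraries, batch as a term and mouse as a random block (correlation 0.951). Exact permutation tests (two-sided) used scipy 1.17.1 in Python 3.11.15. Fits were tested on simulated data, where for Trim24COE tumors against glands the share of false calls lay above the 0.05 aimed for, so calls of that comparison are less certain than their adjusted p. The genes named are the 10 members, up to 3 genes of each companion list with the smallest p in carcinosarcomas against glands, and the 3 genes most like each member; P4ha3, Ltbp3 and the early-response genes were picked with their values in view. The members and lists were chosen with earlier results of these data known. Whether replicates share cages or litters is not given, so p-values measure the spread between these mice. Alternatives changed the pseudocount, filter, scaling, trend, groups in the fit, repeats, batch term, block, marker covariates and glands used, and left out each mouse.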

Additional observations from a re-analysis of the deposited data

Results flagged for a closer look

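Fn1 in control glands was flagged because its lowest mouse, 133, stood apart from the other 3 glands: 17.07 TPM against 26.3, 26.1 and 27.0 TPM, with a gap of 0.927 of the whole range on the log2(TPM + 1) scale, where 0.829 is the limit for 4 samples. The repeat library of mouse 133 held 15.6 TPM. Each of the 10 genes was examined in the group of 4 glands, and chance flags about 1 in 20 groups. Without gland 133 the carcinosarcoma and carcinoma calls of Fn1 both held.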

How the results depend on the processing

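No paired analysis was possible because no mouse or replicate number is shared between the groups compared. Of 51 counts of members called under alternatives other than leaving out a mouse, 44 stayed close to the main count. That tally does not compare which genes were called. In carcinomas against glands 417_3 and 517_3 only, the count was 2 against 3 and was tallied as close. There Thbs2 rose and Thbs1 fell, while Fn1, Tnc and Tgfbi lost their calls. Of 510 single-gene values, 434 kept both their direction and their side of the threshold. Without a filter on low values limma called 0 members in carcinomas against glands, with 4 at an unadjusted p under 0.05. That fit called 46 of 38798 genes. With the macrophage marker covariate limma called 0 members in Trim24COE tumors, in carcinosarcomas and in carcinomas against glands. Of the members, 0, 2 and 1 had an unadjusted p under 0.05 there, and of all genes 0, 7 and 0 were called. With glands 133 and 392 only, chosen after seeing the data, 3 members were called in Trim24COE tumors and 1 in carcinomas. Of all genes, 3209 of 16628 and 1255 of 16069 were called in those fits. With glands 417_3 and 517_3 only, also chosen after seeing the data, 1 member was called in non-TRIM24 tumors. It was Thbs1 (log2 -5.16, limma adjusted p = 0.00264), in a fit that called 3350 of 17118 genes. Leaving out 1 mouse gave 4 to 6 members called in Trim24COE tumors, 4 to 7 in carcinosarcomas and 0 to 3 in carcinomas against glands, where the fits without 417_3 or 517_3 gave 0 and those without 89 or 3956 gave 1, and 0 to 2 in carcinosarcomas against carcinomas, with 2 without 3956. When mouse 133 or 3956 was left out, the block correlation of all mice was used. The cause of these changes was not tested.

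Directions turned mostly under the macrophage covariate. In Trim24COE tumors against glands the log2 values became -2.10 for Vim, -0.45 for Postn, -1.83 for Sparc, 0.20 for Thbs1, -0.58 for Thbs2, -0.94 for Lox and -2.25 for Thy1. In carcinosarcomas against glands they became -1.10 for Sparc, 1.60 for Thbs1, -2.44 for Thbs2, -0.40 for Lox and -3.13 for Thy1. In carcinomas against glands they became -1.39 for Sparc, 0.62 for Thbs1, -0.47 for Thbs2, -0.83 for Lox and -1.72 for Thy1. In carcinosarcomas against carcinomas they became -0.23 for Tnc, -0.41 for Postn, -1.02 for Thbs2 and -1.62 for Thy1. Other turns were of small differences or of Thbs1. Vim in carcinomas against glands became 0.17 with the adipocyte covariate and 0.29 with glands 417_3 and 517_3 only. Thy1 between the Trim24COE classes became -0.076 with quantile normalization and -0.10 with the mean of both libraries. In non-TRIM24 tumors against glands, Thy1 became -0.11 without a filter, Lox -0.11 without the batch term, and Vim, Lox and Thy1 -0.30, -0.23 and -0.71 with libraries treated as independent. In carcinomas against non-TRIM24 tumors that last setting gave 0.47 for Vim and 0.39 for Sparc. With glands 133 and 392 only, Thbs1 became 0.79, 0.25 and 1.32 in Trim24COE tumors, carcinosarcomas and carcinomas, and Vim, Lox and Thy1 became -0.22, -0.40 and -0.62 in non-TRIM24 tumors.

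Leaving out 1 mouse moved Vim from -0.48 to 0.44 in carcinomas against glands, from -0.37 to 0.46 in non-TRIM24 tumors against glands and from -0.53 to 0.35 in carcinomas against non-TRIM24 tumors. It moved Thy1 from -0.94 to 0.89 and Thbs2 from -0.84 to 0.74 between the Trim24COE classes, Thy1 from -0.29 to 0.36 in non-TRIM24 tumors against glands and Sparc from -0.49 to 0.45 in carcinomas against non-TRIM24 tumors.

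Counts of all genes called moved by over 1.5 times as follows. Trim24COE tumors against glands went from 2597 to 1140 with the adipocyte covariate and 0 with the macrophage covariate. Carcinosarcomas against glands went from 3511 to 1623 without a filter, 7 with the macrophage covariate, 1345, 1793 and 2185 without tumor 64, 567 or 897, and 5837 with glands 417_3 and 517_3 only. Carcinomas against glands went from 542 to 46 without a filter, 1170 with all 3 groups of batch 1 in 1 fit, 0 with the macrophage covariate, 277, 262 and 100 without tumor 89, 273_5 or 3956, 87 and 72 without gland 417_3 or 517_3, and 1255 and 1224 with glands 133 and 392 or 417_3 and 517_3 only. Carcinosarcomas against carcinomas went from 99 to 0 without a filter, 52 with the macrophage covariate, 0, 49 and 14 without tumor 64, 567 or 897, and 0 and 293 without 89 or 3956. Non-TRIM24 tumors against glands went from 119 to 48 without a filter, 367 without the batch term, 18 with libraries independent, 476, 57 and 49 without gland 133, 417_3 or 517_3, 70 and 7 without tumor 219 or FVB002, and 18 and 3350 with glands 133 and 392 or 417_3 and 517_3 only. Carcinomas against non-TRIM24 tumors went from 5 to between 2 and 12 under the pseudocount of 0.1 TPM, no filter, no batch term and independent libraries, and to between 2 and 89 without 1 mouse, the latter without 219.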
